A study of Homo sapiens and Homo sapiens
Mus musculus and Mus musculus with 9 samples.

Results

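The genes described here are 35 human genes of cholesterol and fatty acid synthesis, taken by symbol from the deposited table of RNA-Seq results, which lists 41713 genes. They comprise 5 regulators of the sterol regulatory element binding proteins (SREBPs), 19 genes of the sterol branch and 11 genes of the fatty acid branch. All 35 were listed and tested in each of the 3 pipelines that the table holds. In the RNA-Seq, 3 libraries of the human prostate cancer line C4-2B grown alone were set against 3 libraries in which 1 C4-2B cell was mixed with 30 mouse pre-osteoblasts of the line MC3T3-E1 (the co-culture). Both lines are labelled wild type, and both cultures were kept in alpha-MEM with 10% fetal bovine serum, with no drug or other agent named. Another 3 libraries, of MC3T3-E1 only, were not used here. The human line is a single established line, and the labels do not say whether the libraries of a group came from separate cultures, so the p-values measure the spread between these libraries.

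SREBPs are made as membrane proteins of the endoplasmic reticulum. When sterols are scarce, SCAP carries them to the Golgi, where proteases release the part that enters the nucleus and switches on genes of sterol and fatty acid synthesis. INSIG proteins hold SCAP back when sterols are plentiful. The gene SREBF2 encodes the form best known for cholesterol genes, and SREBF1 encodes forms best known for fatty acid genes. SREBF1 is also a target of the liver X receptors (LXRs), nuclear receptors that bind oxidised sterols. Prostate cancer cells commonly make much of their own fatty acid, and FASN is often high in them.

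To show the DNA in front of the genes that the comparison turns on, stretches of their promoters are given 5′ to 3′ on the gene's strand (RefSeq, GRCh38.p14). Capitals mark only exact matches to TCACNCCAC, a form of the sterol regulatory element, or to a CCAAT box (ATTGG on the other strand). CCAAT is what the factor NF-Y reads. The 3 genes that rose most (SREBF1, SCD and INSIG1) are shown with SREBF2, with FDPS and LSS of the sterol branch, which rose less, with MSMO1, which did not pass the test, and with HMGCS1, which fell. The stretches lie at chr22:41832955-41833014 (SREBF2, plus strand), chr17:17837027-17837086 (SREBF1, minus strand), chr7:155297688-155297747 (INSIG1, plus strand), chr10:100346993-100347062 (SCD, plus strand), chr1:155308681-155308740 (FDPS, plus strand), chr4:165327474-165327543 (MSMO1, plus strand), chr21:46228885-46228944 (LSS, minus strand) and chr5:43313513-43313572 (HMGCS1, minus strand). That of SREBF2 also lies within an exon of SREBF2-AS1, a non-coding gene of the opposite strand, and the others overlap no GENCODE exon.
SREBF2: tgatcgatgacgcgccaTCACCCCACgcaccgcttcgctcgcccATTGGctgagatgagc
SREBF1: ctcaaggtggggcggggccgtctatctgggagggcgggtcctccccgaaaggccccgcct
INSIG1: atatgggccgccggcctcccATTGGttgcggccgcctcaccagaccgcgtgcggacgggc
SCD: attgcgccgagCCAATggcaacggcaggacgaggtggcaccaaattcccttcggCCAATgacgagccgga
FDPS: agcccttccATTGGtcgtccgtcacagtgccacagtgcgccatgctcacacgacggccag
MSMO1: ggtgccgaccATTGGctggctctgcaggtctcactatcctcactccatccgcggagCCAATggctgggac
LSS: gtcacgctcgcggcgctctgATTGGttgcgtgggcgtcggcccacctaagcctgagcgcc
HMGCS1: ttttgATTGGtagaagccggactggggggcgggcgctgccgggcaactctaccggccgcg

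Promoter windows of 300 bases (250 before to 50 after the start) were found for 31 of the 35 genes. ACAT2, FASN, FDFT1 and SQLE had none. The sterol regulatory element TCACNCCAC, searched on both strands, was found in 1 of the 31 genes, SREBF2, where it begins 133 bases before the start, against 1.39% of all 27305 genes with a window. CCAAT was found in 14 of 16 sterol genes (87.5%), 7 of 10 fatty acid genes (70.0%) and 2 of 5 regulators, INSIG1 and SREBF2, against 39.7% of all genes with a window. The GC box GGGCGG was found in 29 of 31 members (93.5%), against 48.3% of all genes. SREBF1 held no CCAAT in its only window, which lies at the upstream end of the gene, and no start further inside was searched. The difference between the branches was not tested. These matches describe letters in the window, not binding. Only these exact letters were searched, so a window without a match may still hold a variant of the motif.

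The deposited table gives values per group comparison and not per library. For each gene and pipeline it lists a log2 fold change (above 0 where the co-culture was higher) with its standard error (SE), and the mean over the 6 libraries of the normalised count, that is, the count over the size factor of DESeq2. From these, a mean normalised count was worked out for each group, with Xenome unless stated. This takes the fold change as unshrunken and as the ratio of the group means, with 3 libraries per group. A gene's fold change is given as the median of the 3 pipelines (Xenome, XenofilteR and Kallisto), which read the same libraries and are not replicates. SEs and 95% intervals are those of Xenome unless stated. Adjusted p-values are those of DESeq2's Wald test after Benjamini-Hochberg adjustment, which left some genes of a pipeline without an adjusted p. The largest of the 3 pipelines is quoted. A gene passed the test at an adjusted p under 0.05 in the same direction in at least 2 pipelines, and rose or fell is written only of such genes. A gene was called at the study's thresholds where its log2 fold change was also at least 1 in size in those pipelines.

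All 35 had the same sign in the 3 pipelines, the median of their ranges over the pipelines was 0.04 (log2), and the widest range was 0.20, for ELOVL6. HSD17B7 (0.085 to 0.28) and DHCR7 (0.28 to 0.43) also differed between pipelines by amounts close to the sizes of change in the sterol branch. The co-culture libraries held far fewer human reads than the libraries of C4-2B alone. With Xenome, the low mean counts gave 207 to 253 M human reads per library for C4-2B alone and 4.59 to 18.0 M for the co-culture. The reads behind a member, summed over the 3 co-culture libraries, ranged from 121 for ELOVL6 to 45951 for FASN. The SEs of the members ran from 0.05 to 0.19. C4-2B was 1 part to 30 parts MC3T3-E1 in the mix, so fewer human reads were built into the co-culture. Since counts were scaled to the human reads of each library, any further change in human cell number and in RNA per cell cannot be told apart here. Of the markers of prostate epithelium listed for a check of the cell type, 7 were analysed and the others are not reported here. Of the 7, 1 (TMPRSS2) fell and 6 did not pass, with a median log2 fold change of -0.02 and a summed mean of 127215 alone and 125033 in co-culture.

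The lipid synthesis genes moved upward in part. Of the 35 members, 3 were called higher (SREBF1, INSIG1 and SCD) and 0 lower at the study's thresholds, where 1.28% of all 25298 tested genes were called higher and 0.7% lower. With no minimum on the fold change, 14 members rose, 3 fell and 18 did not pass, where 5.24% of all tested genes rose and 4.78% fell. Among 10376 protein-coding genes within the members' range of mean count, 8.96% rose and 8.88% fell, and 0.414% were called higher and 0.386% lower. The median log2 fold change was 0.22 over the members, 0.00 over all tested genes and 0.01 over the genes of like level. Together the members took 0.595% of the normalised counts of C4-2B alone and 0.848% of those of the co-culture.

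**Figure D1:**
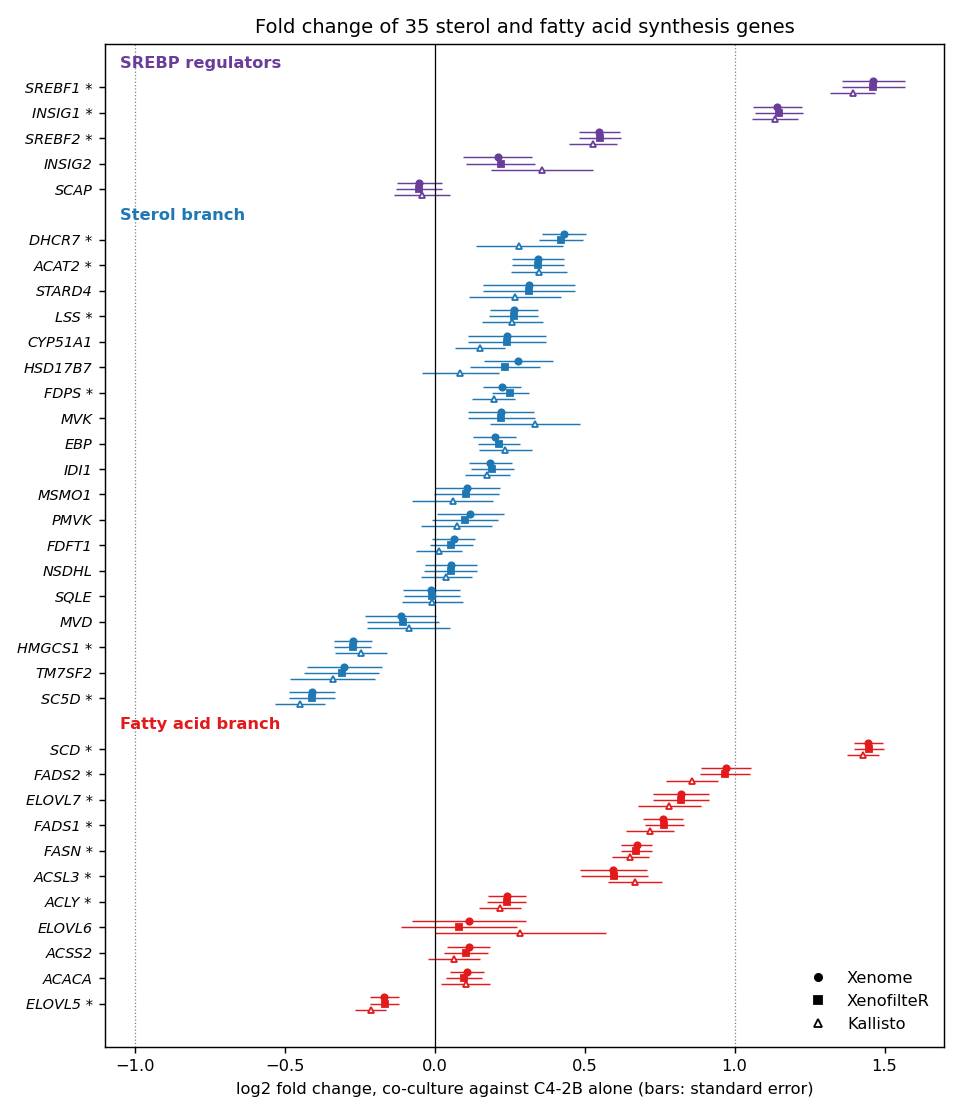
Log2 fold change (horizontal axis) of each of the 35 genes, with 1 symbol per pipeline and bars of 1 standard error; asterisks mark genes that passed the test, and dotted lines mark a log2 fold change of 1 in either direction. SREBF1, SCD and INSIG1 lie beyond 1, most sterol genes lie between 0 and 0.42, and HMGCS1, SC5D and ELOVL5 lie below 0.

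Of the 5 regulators, 3 rose and 2 did not pass, with a median log2 fold change of 0.55. Of protein-coding genes of like level to the members, 8.96% rose and 8.88% fell. SREBF1, the transcription factor best known for fatty acid genes, went from a mean normalised count of 5938 alone to 16364 in co-culture. Its log2 fold change of 1.46 ± 0.11 (SE, 2.76-fold, adjusted p = 7.2e-41) was the largest of the 35 members by the median, but SCD was close to it and was higher than SREBF1 in Kallisto (1.43 and 1.39). INSIG1, the sterol-induced retention protein that is itself an SREBP target, went from 2821 to 6227, a log2 fold change of 1.14 ± 0.08 (2.21-fold, adjusted p = 3.4e-42). SREBF2 rose by less, from 4843 to 7080, a log2 fold change of 0.55 ± 0.07 (1.46-fold, adjusted p = 3.4e-09). The 95% intervals of SREBF1 (1.26 to 1.67) and SREBF2 (0.41 to 0.68) did not overlap. The other retention protein, INSIG2, had a log2 fold change of 0.22 and did not pass in any pipeline. Its 95% interval was -0.02 to 0.43 in Xenome and 0.02 to 0.69 in Kallisto, where the log2 fold change was 0.36. SCAP, the escort of both SREBPs, had means of 4133 and 3988 and a log2 fold change of -0.05, with an interval of -0.20 to 0.10. The intervals of SREBF1 and INSIG1 (0.98 to 1.30) both lay above those of INSIG2 and SCAP.

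In the fatty acid branch 7 of 11 genes rose, 1 fell and 3 did not pass, and the median log2 fold change was 0.60. The shares among protein-coding genes of like level to the members were 8.96% rising and 8.88% falling. SCD, the desaturase that makes oleate and palmitoleate from saturated fatty acids, went from a mean normalised count of 13040 to 35519. Its log2 fold change of 1.45 ± 0.05 (2.72-fold, adjusted p = 1.8e-152) had the highest Wald statistic of all genes in Xenome and in XenofilteR, and the third in Kallisto. Without SCD, the median of the branch was 0.42 and 6 of 10 genes rose. FADS2 and FADS1, the desaturases of polyunsaturated fatty acid synthesis, lie side by side on chromosome 11. FADS2 went from 19084 to 37400, a log2 fold change of 0.97 ± 0.08 (1.96-fold, adjusted p = 1.5e-20), just under the study's fold threshold. FADS1 went from 4933 to 8355, a log2 fold change of 0.76 ± 0.07 (adjusted p = 1.3e-17). Of the exon bases of FADS1, 5.57% overlap other annotated genes, and 5.11% of those of FADS2, most of them on the opposite strand. All 3 desaturase genes of the fatty acid branch thus rose, by 1.69-fold to 2.72-fold.

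FASN, the enzyme that builds palmitate, had the most reads of the members and went from 42348 to 67550, a log2 fold change of 0.67 ± 0.05 (1.59-fold, adjusted p = 7.7e-25). ACLY, which makes cytosolic acetyl-CoA from citrate, rose by less, from 21981 to 25975 (log2 fold change 0.24 ± 0.06, adjusted p = 0.014). ACACA makes malonyl-CoA, the step that commits carbon to fatty acids, and had means of 21014 and 22628. Its log2 fold change of 0.10 ± 0.06 did not pass (adjusted p = 0.49), and its 95% interval of -0.0029 to 0.22 lay below that of FASN (0.57 to 0.77). ACSS2, which makes acetyl-CoA from acetate, also did not pass, at 0.10 (interval -0.03 to 0.25). Within the chain from citrate to palmitate, then, the last enzyme rose most and ACACA did not pass.

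The elongases, which lengthen fatty acids, went different ways. ELOVL7 went from 6426 to 11346, a log2 fold change of 0.82 ± 0.09 (1.77-fold, adjusted p = 4.7e-12). ELOVL5, which acts on polyunsaturated chains, fell from 38176 to 33950, a log2 fold change of -0.17 ± 0.05 (adjusted p = 0.0088), the only member of the branch below 0. ELOVL6, which lengthens palmitate, had the fewest reads of all members, with means of 165 and 178, a log2 fold change of 0.11 and a wide interval of -0.26 to 0.49. ACSL3, which activates fatty acids with coenzyme A, rose from 18166 to 27454, a log2 fold change of 0.60 ± 0.11 (adjusted p = 7.1e-06).

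In the sterol branch 4 of 19 genes rose, 2 fell and 13 did not pass, and no gene reached a log2 fold change of 0.5 in size. Among protein-coding genes of like level to the members, 8.96% rose and 8.88% fell. The share of the sterol branch that fell was near the latter. The branch median was 0.19 (0.085 with Kallisto alone), with 14 genes above 0 and 5 below. At the start of the pathway the neighbouring steps went apart. ACAT2, which joins acetyl-CoA units, rose from 1951 to 2476 (log2 fold change 0.35 ± 0.09, adjusted p = 0.0025). HMGCS1, which makes HMG-CoA, fell from 4916 to 4066 (log2 fold change -0.27 ± 0.06, adjusted p = 0.033). MVK, PMVK, MVD and IDI1, the mevalonate kinases, decarboxylase and isomerase that follow, did not pass, with log2 fold changes from -0.11 to 0.22. FDPS, which makes farnesyl diphosphate, rose from 3121 to 3645 (0.22 ± 0.06, adjusted p = 0.045). FDFT1, the squalene synthase that commits farnesyl diphosphate to sterols, and SQLE, the squalene epoxidase that sets the rate of the later pathway, did not pass. SQLE had means of 2259 and 2239 and a 95% interval of -0.20 to 0.17, which lies below the changes of SREBF1, INSIG1, SCD and FASN.

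After squalene, LSS, which closes the sterol rings, rose from 2918 to 3501 (log2 fold change 0.26 ± 0.08) in Xenome and XenofilteR, with an adjusted p of 0.061 in Kallisto. DHCR7, the last enzyme of cholesterol synthesis, rose from 4811 to 6484, a log2 fold change of 0.42 ± 0.07. It also passed in Xenome and XenofilteR only, with 0.28 and an adjusted p of 0.20 in Kallisto. SC5D, which acts just before DHCR7, fell from 4534 to 3411 (log2 fold change -0.41 ± 0.08, adjusted p = 5.1e-06), and the intervals of SC5D (-0.56 to -0.26) and DHCR7 (0.29 to 0.57) lay on opposite sides of 0. The enzymes between LSS and SC5D (CYP51A1, TM7SF2, MSMO1, NSDHL, HSD17B7 and EBP) did not pass, and ranged from -0.31 for TM7SF2, a sterol reductase, to 0.24 for CYP51A1. EBP passed in XenofilteR only, with a median log2 fold change of 0.22. STARD4, which carries cholesterol between membranes, was at 0.31 and did not pass (adjusted p = 0.27).

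The median of the fatty acid branch exceeded that of the sterol branch by 0.41 on the log2 scale, a description that was not tested because genes of a list are not replicates. In summed normalised counts, the fatty acid genes went from 187215 to 272389, 1.45 times as high in the co-culture, and the sterol genes from 47934 to 50531, 1.05 times as high. The 5 regulators summed to 18469 and 34507, 1.87 times as high. The fatty acid branch took 0.439% of all counts alone and 0.646% in co-culture, and the sterol branch 0.112% and 0.120%.

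**Figure D2:**
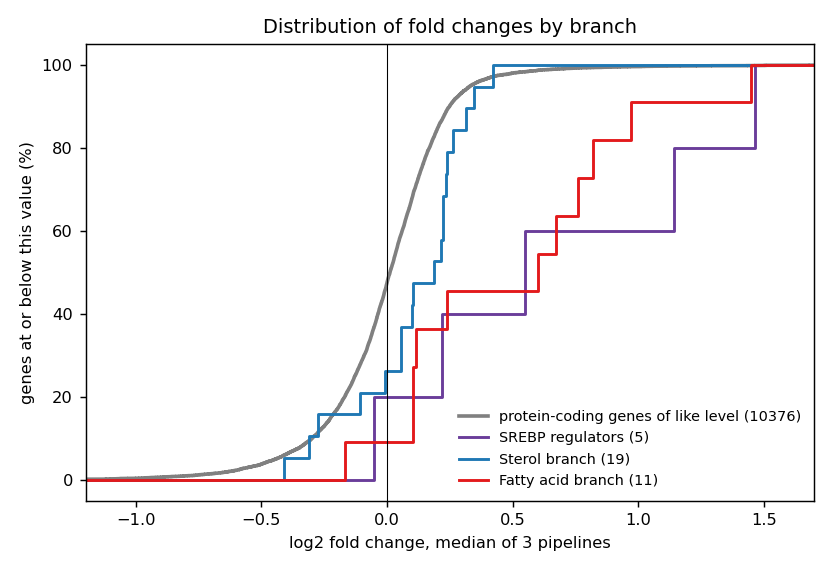
Cumulative share of genes (vertical axis, percent) at or below a given log2 fold change (horizontal axis, median of 3 pipelines) for the regulators, the sterol branch, the fatty acid branch and 10376 tested protein-coding genes of like mean count. The sterol curve ends at 0.42 and the fatty acid curve reaches 1.45, with medians of 0.19 and 0.60.

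Levels of different genes were compared only per kb of annotated exon. On that scale ELOVL5 was the highest member in both groups, with a normalised count per kb of 10012 alone and 8904 in co-culture. FASN (4543 and 7247), ACLY (4221 and 4988), SCD (2486 and 6772) and FADS2 (1808 and 3544) followed in C4-2B alone. SCD passed ACLY in the co-culture and lay close to FASN. The highest sterol gene in C4-2B alone was PMVK (1617) with Xenome, but CYP51A1 (2883) with Kallisto, where PMVK was at 1744, and the lowest members were STARD4 (72.6) and ELOVL6 (22.7). SREBF1 (721) and SREBF2 (601) were close in C4-2B alone, and SREBF1 was at 1987 and SREBF2 at 879 in the co-culture. The 14 genes that rose ran from FASN at 4543 down to FADS1 at 482 and LSS at 403 in C4-2B alone.

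**Figure D3:**
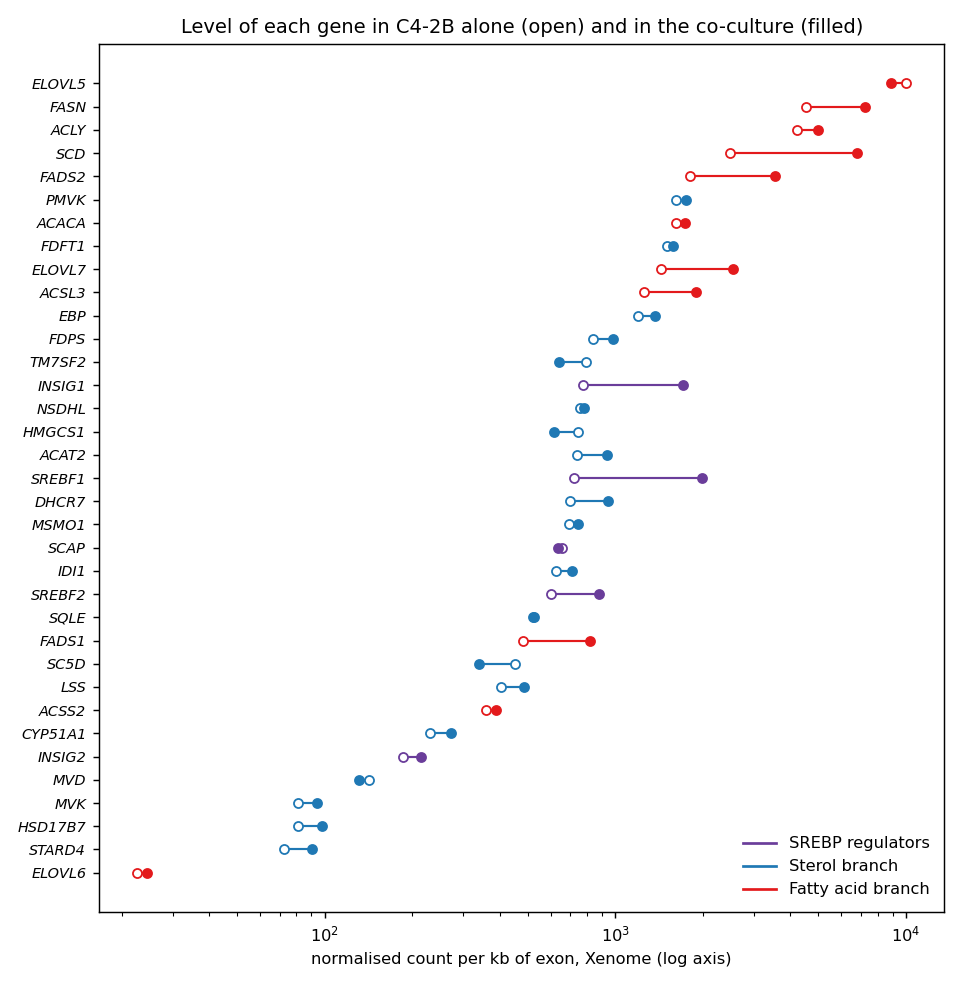
Normalised count per kb of exon (horizontal log axis, Xenome) of the 35 genes, alone (open) and in co-culture (filled), in the order of the level in C4-2B alone. The widest gaps belong to SREBF1, SCD and INSIG1, and ELOVL5 is the highest gene in both groups.

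Of 44 other genes of lipid metabolism listed for comparison, 9 rose, 2 fell and 33 did not pass, with a median log2 fold change of 0.01. Of all tested genes, 5.24% rose and 4.78% fell, and of protein-coding genes of like level to the members, 8.96% and 8.88%. LBR, which also has sterol reductase activity, rose from 6144 to 9091 (log2 fold change 0.56, adjusted p = 1.6e-05). SCARB1, a lipoprotein receptor, rose by 0.18 in Xenome and XenofilteR only. GGPS1, which makes geranylgeranyl diphosphate, and NPC1 and NPC2, which move cholesterol out of lysosomes, did not pass. The proteases that release SREBPs (MBTPS1 and MBTPS2) and RNF139, a ubiquitin ligase of the endoplasmic reticulum, did not pass either and lay between -0.15 and 0.12.

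Among the genes of these lists that passed, the sterol efflux genes changed most. ABCA1 and ABCG1, the cholesterol exporters that LXRs switch on, had log2 fold changes of 1.98 (adjusted p = 9.4e-05) and 1.79 (adjusted p = 1.0e-30). ABCA1 was low, with a mean normalised count of 24.2 for C4-2B alone and 97.1 for the co-culture, which corresponds to about 66.0 reads over the 3 co-culture libraries. ABCG1 went from 247 to 869.7. MYLIP, a ubiquitin ligase and LXR target, rose from 731 to 1256 (log2 fold change 0.78, adjusted p = 7.0e-11). The genes of the receptors themselves, NR1H2 and NR1H3, were at 0.01 and 0.12 and did not pass. Of the 7 genes of this list, 3 rose and 4 did not pass, where 5.24% of all tested genes rose and 4.78% fell.

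Of 18 genes of fatty acid supply, desaturation, elongation and activation, 2 rose and 2 fell, shares near those of protein-coding genes of like level (8.96% and 8.88%). ME1, which makes NADPH for fatty acid synthesis, rose by 0.56 (adjusted p = 1.2e-08) and ACSL1, an acyl-CoA synthetase, by 0.41 (adjusted p = 1.2e-05). MLXIPL, a glucose-responsive activator of lipid synthesis genes, fell from 174 to 98.4 (log2 fold change -0.79) in Xenome and XenofilteR, with an adjusted p of 0.42 in Kallisto. HACD3, an elongation cycle enzyme, fell by 0.17 on the log2 scale, with an adjusted p of 0.050 in Xenome. SCD5, the other human stearoyl-CoA desaturase, had a mean normalised count of 5.43 in Xenome, but its Kallisto mean was 26.9 times as high, and no change is read from it. In glycerolipid synthesis LPIN1 alone of 7 genes rose (0.42, adjusted p = 0.0019). Among 4 subunits of AMPK, the kinase that inhibits ACACA, PRKAA2 rose from 1158 to 2648 (log2 fold change 1.19, adjusted p = 1.6e-47), and PRKAA1, PRKAB1 and PRKAG1 did not pass.

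**Figure D4:**
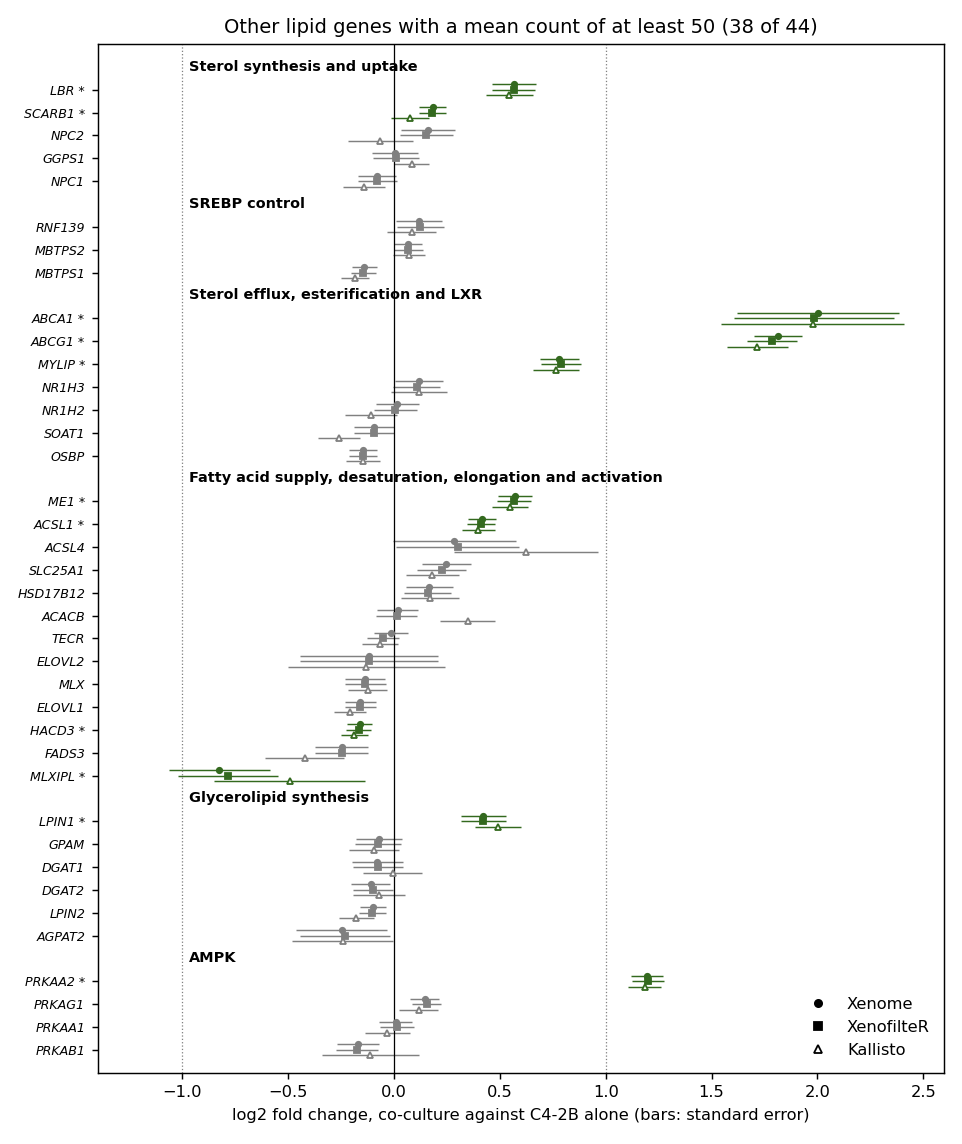
Log2 fold change (horizontal axis) of 38 of the 44 other lipid genes, those with a mean normalised count of at least 50 in Xenome, by list, with 1 symbol per pipeline and bars of 1 standard error; asterisks and green mark genes that passed the test. ABCA1, ABCG1 and PRKAA2 lie beyond 1, and MBTPS2, NR1H2 and PRKAA1 lie near 0.

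Because mouse cells outnumbered the human cells in the co-culture, the share of sequence found exactly in mouse transcripts was measured. Sequence that matches mouse with mismatches is outside this share, so it cannot bound the mouse reads kept by the pipelines. The percent of a human gene's distinct 31-base sequences that also occur in mouse transcripts had a median of 0.425% over the members and ran from 0% to 3.43% (ELOVL6), beside a median of 0.502% over 19874 protein-coding genes. It was 0.479% for SCD, 0.245% for FASN, 0.425% for INSIG1, 1.97% for SREBF1, 3.15% for ABCA1 and 4.66% for MYLIP. Of all tested genes, 1.28% were called higher and 4.78% fell. Of 13 osteoblast and mesenchyme markers, COL1A1, SPARC, POSTN and COL1A2 were called higher, COL5A2 fell and 5 did not pass. The other 3 (LUM, ALPL and SP7) had no adjusted p in any pipeline. COL3A1, which did not pass, was lower with Xenome (log2 fold change -1.13, adjusted p = 0.048) and higher with XenofilteR (3.56, adjusted p = 3.0e-06). The summed mean normalised count of the 13 went from 1554 to 6949 with Xenome, from 1543 to 10561 with XenofilteR and from 1947 to 5303 with Kallisto. COL1A1 alone held 6017 of the co-culture sum with Xenome. Of the 13, 7 had a mean under 10, and the markers LUM, ALPL and SP7 stayed under a mean of 2 in both groups. The part of mouse reads in the changes of the lipid genes was not tested. Over both groups together, the mean count of SCD with Kallisto, which assigns reads to both transcriptomes at once, was 1.02 times that with Xenome. The ratio was 1.00 for FASN, 0.974 for SREBF1 and 1.02 for INSIG1. As it pools the groups, it does not measure mouse reads in the co-culture.

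The annotation limits a few sterol genes more than the others. The mean count differed by more than 1.5 times between Kallisto and Xenome for 3 members. CYP51A1 was 12.1 times as high with Kallisto, and 68.2% of its exon bases overlap other genes of the same strand, chiefly ENSG00000285772. EBP was 2.16 times as high, with 36.4% of its exon bases in such overlap, chiefly with ENSG00000286268. FDPS was 1.57 times as high, and 23.5% of its 31-base sequences occur in other human genes. The same share was 38.9% for HMGCS1, 23.1% for HSD17B7, 19.0% for ACAT2, 16.5% for IDI1 and 13.4% for SCD, and 37.7% of the exon bases of HMGCS1 lie opposite other annotated genes, chiefly ENSG00000261604. The fold changes of these 8 genes differed between pipelines by at most 0.19 on the log2 scale.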

How the data were processed

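Stranded mRNA libraries (50 bp paired-end reads) of C4-2B cells alone (3) and of the mixed co-culture (3) were compared. Human reads were separated by the authors in 3 ways. Xenome sorted reads before alignment (HISAT2, GRCh38), XenofilteR filtered reads aligned to GRCh38 and to GRCm38, and featureCounts gave the counts of both. Kallisto assigned reads to an index of both transcriptomes. DESeq2 was then run by the authors in each pipeline. The fold change and standard error were deposited as log2 values. A Wald statistic, deposited as a score, is the ratio of both. Each p-value was deposited raw and, for the genes that have an adjusted p, after Benjamini-Hochberg adjustment. The deposited mean is of counts divided by size factors. Columns of single libraries were not used here, so no test was rerun: these columns of the authors' comparisons are the only measurements, and the rule that picks these genes asks for them.

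Of 41734 rows, 21 that repeat a gene were dropped. Each gene was given the median of its pipeline values. Group means follow from the mean and the fold change, as 2 times the mean split in the ratio of the groups. Size factors were solved from means up to 3 as sums of whole reads, which wrote all 15274 such means of Xenome (tolerance 1e-08), and the group of each set of libraries followed from the sign of the fold change of genes read in 1 set only. The median depth ratio was 37.1. These read numbers cover counting error only. Exon lengths and overlaps come from GENCODE 44, mouse transcripts from GENCODE M21, and promoters from RefSeq. Members and lists were chosen with earlier results of these data known. Named were the regulators, SQLE, ACACA, FASN, SCD, every gene that passed the test, and others by range; further genes were named after their values were seen, and some listed genes are not reported here. Alternatives were each pipeline alone, all 3 pipelines, no filter on low means, protein-coding genes only, adjusted p under 0.01, centring on other genes and, added after the data were seen, adjustment over genes with a mean of at least 1000. The solver and the calling rule were tested on simulated data. The software was matplotlib 3.10.9, numba 0.67.0, scipy 1.17.1, pandas 2.3.3, numpy 2.4.6 and python 3.11.15.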

Additional observations from a re-analysis of the deposited data

How the results depend on the processing

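No paired analysis was possible because the columns analysed compare groups and carry no single library. For the same reason, leaving out a replicate, other normalisations and other count tests were not run. No result for the 35 members or their branch medians reversed. Outside the members, COL3A1 had opposite signs with Xenome (log2 fold change -1.13) and XenofilteR (3.56). NPC2 and NR1H2, which did not pass, were above 0 with Xenome and below 0 with Kallisto. The median log2 fold change of the sterol branch was 0.085 with Kallisto alone, beside 0.19, and the sterol median minus the fatty acid median was -0.57, beside -0.41; the cause was not tested. The count of 3 members called higher and 0 lower was the same in each alternative run, as was the count of 3 members that fell. The count that rose, 14, ranged from 12 (Kallisto alone, or all 3 pipelines) to 16 (adjustment over genes with a mean of at least 1000). Over the 35 genes and 5 settings, 170 of 175 results kept their direction and their side of the threshold. LSS and DHCR7 no longer passed with Kallisto alone (0.26 and 0.28), and EBP passed with XenofilteR alone and with either centring (0.20 to 0.22). Centring moved fold changes by at most 0.0137 (Xenome). The co-culture libraries, at 4.59 to 18.0 M human reads with Xenome, limit the precision of counts, and the largest standard errors in Xenome were those of ELOVL6 and STARD4.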
